A study of Arabidopsis thaliana with 9 samples.

Results

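Siliques of Arabidopsis thaliana with excess SCL15 in their seeds were compared with siliques of an scl15 knockout, 3 libraries against 3 of the 9 in the series, across all genes of the deposited table. Siliques, the pods with the seeds inside, were taken 12 days past anthesis, per the labels. The knockout is labelled as lacking a functional gene, and the sources used here do not give the site of the disruption. The overexpression plants are labelled Napin:SCL15, after the promoter of a seed storage albumin, and carry the gene for expression in seeds. How many independent transgenic or knockout lines were sampled was not stated in those sources. The 3 wild type libraries, labelled as the Columbia background, entered the estimate of the spread and were set beside both lines. The labels call the replicates biological, and every p-value below reflects the variation among those libraries alone.

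SCL15 belongs to the GRAS family of plant transcription regulators, which also holds the DELLA repressors of gibberellin responses. In seedlings it is known as a partner of the histone deacetylase HDA19 that keeps seed maturation genes repressed. During maturation the embryo fills with storage proteins and oil, then gains desiccation tolerance with late embryogenesis abundant (LEA) proteins, small heat shock proteins and dormancy factors, while its chloroplasts lose their photosynthetic apparatus. The transcription factors LEC1, FUS3, ABI3 and LEC2 direct this programme, with abscisic acid and the bZIP factor ABI5 acting in its late phase.

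The labels were checked on SCL15 itself (AT4G36710, TAIR10.1 chromosome 4, 17305758 to 17307648). It measured 6.31, 6.39 and 4.82 TPM in the 3 knockout libraries and 526, 569 and 556 TPM in the 3 overexpression libraries. Wild type stood at 14.4, 16.2 and 10.7 TPM. TPM are length-corrected transcript abundances that add up to the same total in each library. No libraries of different groups overlapped, and the order was knockout, wild type, overexpression. Group means were 5.84 ± 0.886 TPM in the knockout and 550.4 ± 21.8 TPM with overexpression (SD, n = 3). The log2 fold change was 6.34, with an SE of 0.15. The exact two-sided permutation p was 0.1, the smallest that 3 against 3 libraries can give. Transcript remained in the knockout libraries, and whether the counted exon includes the disrupted part is not known from the labels.

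Because all values share a total of 1000000, the scale matters here. Listed storage protein transcripts made up 32.5% ± 0.478 of all TPM in the knockout and 42.5% ± 2.62 with overexpression (SD, n = 3), with no overlap of libraries. The 10 most abundant genes held 38.8% ± 0.804 and 49.2% ± 1.34, respectively. The median log2 fold change of the 16553 genes tested was -0.38 as deposited and -0.01 after median-ratio scaling, which sets the typical gene level between libraries. A gene was therefore called higher or lower only where its Benjamini-Hochberg adjusted p from limma was at most 0.05 with the same sign on both scales. Fold changes below are overexpression minus knockout on the log2(TPM + 1) scale as deposited, which understates changes of low genes, and each adjusted p is the larger of the 2 scales. Depth is unknown, since TPM keep none.

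On this rule 3426 of 16553 genes changed (20.7%), of which 1019 were higher (6.16%) and 2407 lower (14.5%) with overexpression. The split depended on scale: 7126 genes were lower as deposited (43%), while after median-ratio scaling 2194 were higher (13.3%) and 2407 lower. Falls made up 70.3% of the joint calls, 87.5% as deposited and 52.3% after median-ratio scaling. A change of at least 2-fold as deposited was seen for 453 higher (2.74%) and 1733 lower genes (10.5%). After median-ratio scaling the same limit left 767 higher (4.63%) and 775 lower (4.68%). All 3 overexpression libraries lay above all 3 knockout libraries for 7.36% of genes tested and below them for 49.3%.

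**Figure D1:**
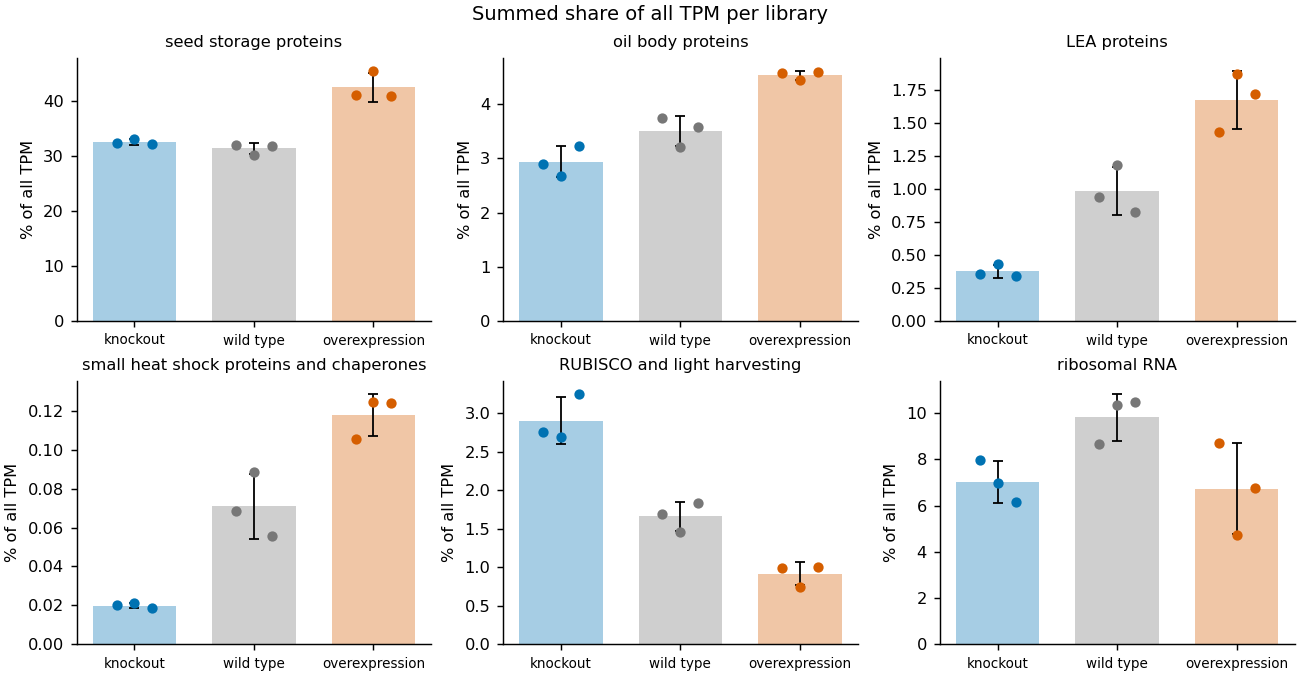
Bars show the mean share of all TPM (%) held by 5 gene lists (storage, oil body, LEA and chaperone proteins, and RUBISCO with light harvesting) and by ribosomal RNA in knockout, wild type and overexpression siliques, with SD bars and 1 point per library (n = 3). LEA protein transcripts ran from 0.338% to 0.43% in the knockout and from 1.43% to 1.87% with overexpression, while RUBISCO and light harvesting transcripts ran from 2.7% to 3.26% and from 0.744% to 1%.

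Of 13 storage protein transcripts tested, 6 rose and none fell, where 6.16% of all genes were called higher, and all 6 risers were cupin-fold globulins (12S cruciferins and vicilin-type proteins). The most abundant was CRC, cruciferin 3, at 76849.5, 73825 and 75343 TPM in the knockout and 133695, 155459 and 131917 TPM with overexpression. Another cruciferin, CRA1, stood at 30679.9, 24719 and 27202 TPM and 51526, 54454 and 47145 TPM. Neither gene's groups overlapped, and every overexpression library was higher (log2 fold change 0.89, SE 0.26, adjusted p = 0.011 for CRC; log2 fold change 0.89, adjusted p = 0.0038 for CRA1). CRU2 rose most among the list (log2 fold change 1.29, SE 0.13, adjusted p = 4.6e-06), AT2G28490 rose by 0.96 and CRB, cruciferin 2, by 0.59. None of the 5 transcripts of 2S albumins (SESA1 to SESA5) passed, with fold changes from -0.41 for SESA2 to 0.39 for SESA5. The cupin genes AT2G18540 and AT4G36700 did not pass either, at 0.24 and -0.30. These were named after their values were seen. SESA3, the most abundant albumin, measured 98292, 105944 and 99797 TPM in the knockout and 110359, 122242 and 114865 TPM with overexpression, and SESA2 52021, 56606 and 52442 against 40453, 41448 and 39133 TPM. The groups were separate for both, higher with overexpression for SESA3 and lower for SESA2, whose fold change was 0.02 after median-ratio scaling. The list's median was 0.39 against -0.38 for all genes. The storage calls were sensitive to setting: without a filter on low values 3 members rose, and CRC and CRB lost their calls there, under quantile normalization, where 2 members fell, and without knockout replicate 3 and overexpression replicate 3 together.

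Proteins that coat oil bodies followed the globulins. Of 10 tested, 7 rose and none fell, with a median of 0.73, where 6.16% of all genes rose. OLEO4, an oleosin, was tight within each group at 3271, 3188 and 3384 TPM in the knockout, 4805, 4289 and 4343 TPM in wild type and 6159.8, 6086 and 6106 TPM with overexpression (log2 fold change 0.90, SE 0.14, adjusted p = 1.6e-04). All 3 groups were separate. The caleosin CLO2 rose from 136, 135 and 127 to 309, 326 and 346 TPM (log2 fold change 1.29, SE 0.10, adjusted p = 6.4e-07). CLO1 rose by 0.76 and OLEO1 by 0.69. The steroleosin HSD1B rose by 0.99, but it has a near-identical copy, and the reads of both may be shared. The member lowest in fold change was OLEO3, at -0.94 with adjusted p = 0.067. It passed in the falling direction without knockout replicate 2 or without wild type replicate 2, which makes 1 lower member.

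LEA proteins, hydrophilic proteins that accumulate as seeds become desiccation tolerant, had the highest median of the 22 lists. Of 28 tested, 27 rose and none fell, at 2.54, where 6.16% of all genes rose. EM6, a group 1 LEA protein, measured 16.5, 24.1 and 12.5 TPM in the knockout and 743, 901 and 923 TPM with overexpression, with wild type at 389, 496 and 321 TPM. The 3 groups were fully separate, and the change (log2 fold change 5.56, SE 0.20, adjusted p = 1.0e-09) was the largest on the list. AT4G36600 went from 0.891, 2.14 and 1.7 to 68, 92.5 and 74.9 TPM (log2 fold change 4.97). AT3G22490, a seed maturation protein, went from 0.775, 2.03 and 1.08 to 42.1, 56.7 and 44.8 TPM (log2 fold change 4.44). For both, wild type libraries lay between the lines without overlap. M10 differed in this respect: it rose from 4.18, 13.2 and 2.64 to 118, 128 and 147 TPM (log2 fold change 4.35, SE 0.35, adjusted p = 7.5e-07), while wild type libraries, at 103, 132 and 83.1 TPM, overlapped those of overexpression. Among dehydrins of the list, named after their values were seen, RAB18 rose from 550.1, 869 and 453 to 3715, 4755 and 4318 TPM and XERO1 by 1.82. The 1 member not past the threshold was M17, at 38, 44.8 and 31.9 TPM in the knockout and 20.3, 20.8 and 21.8 TPM with overexpression (log2 fold change -0.82, adjusted p = 0.059). It passed in the falling direction without knockout replicate 3 or without wild type replicate 2. Of 6 tested dehydrins and cold LEA proteins of vegetative tissue, LTI30 rose by 1.34 and ERD10 fell (log2 fold change -0.89, SE 0.14, adjusted p = 0.019), and the median was -0.50. ERD10 lost its call without knockout replicate 3 or overexpression replicate 1, and 3 members fell without overexpression replicate 3.

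Promoters of the 3 LEA and 2 oil body genes of largest rise whose upstream window lies in no other gene are printed to show where 2 seed motifs lie in them. Each is the 250 bases before the annotated gene start, 5′ to 3′ on the gene's strand, from TAIR10.1 (RefSeq). Capitals mark ACGTG, the core of the abscisic acid response element bound by bZIP factors such as ABI5, and CATGCA, the core of the RY element bound by B3 factors such as ABI3, on either strand. EM6 is at chr2:16780369-16780618 (minus strand), AT4G36600 at chr4:17263314-17263563 (plus) and AT3G22490 at chr3:7970844-7971093 (minus). CLO2 is at chr5:22405646-22405895 (plus) and HSD1B at chr5:20625280-20625529 (minus). The LEA windows hold ACGTG and no CATGCA, CLO2 holds CATGCA and no ACGTG, and HSD1B holds both.
EM6: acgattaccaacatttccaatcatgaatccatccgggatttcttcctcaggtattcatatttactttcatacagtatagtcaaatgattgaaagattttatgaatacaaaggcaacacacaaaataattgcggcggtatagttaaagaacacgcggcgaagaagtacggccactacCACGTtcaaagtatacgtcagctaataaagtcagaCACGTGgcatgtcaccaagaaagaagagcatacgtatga
AT4G36600: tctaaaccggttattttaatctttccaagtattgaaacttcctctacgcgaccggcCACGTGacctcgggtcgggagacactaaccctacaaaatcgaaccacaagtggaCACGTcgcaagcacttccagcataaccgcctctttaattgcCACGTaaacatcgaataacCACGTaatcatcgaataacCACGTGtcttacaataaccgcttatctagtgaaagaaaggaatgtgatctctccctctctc
AT3G22490: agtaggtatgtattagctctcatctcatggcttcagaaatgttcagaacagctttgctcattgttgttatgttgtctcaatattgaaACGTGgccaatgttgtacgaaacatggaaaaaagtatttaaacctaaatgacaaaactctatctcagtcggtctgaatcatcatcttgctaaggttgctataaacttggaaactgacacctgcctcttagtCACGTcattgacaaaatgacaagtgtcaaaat
CLO2: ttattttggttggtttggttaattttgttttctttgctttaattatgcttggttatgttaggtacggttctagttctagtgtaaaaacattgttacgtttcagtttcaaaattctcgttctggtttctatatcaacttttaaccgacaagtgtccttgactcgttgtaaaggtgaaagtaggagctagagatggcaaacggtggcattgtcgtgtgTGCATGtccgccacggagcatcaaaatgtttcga
HSD1B: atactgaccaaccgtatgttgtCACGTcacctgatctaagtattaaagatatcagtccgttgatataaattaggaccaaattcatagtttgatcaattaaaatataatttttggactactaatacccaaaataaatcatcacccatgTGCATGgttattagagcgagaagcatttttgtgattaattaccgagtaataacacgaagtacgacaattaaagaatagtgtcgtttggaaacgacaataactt

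ACGTG stood in 26 of 29 LEA promoters (89.7%) and in 24.5% of the 16203 promoters of genes tested. The G-box CACGTG, which contains ACGTG on both strands, stood in 20 of 29 LEA promoters (69.0%) and in 8.05% of the promoters of genes tested. CATGCA stood in 10 of 10 oil body and 11 of 13 storage protein promoters (84.6%), against 7.71% of those tested, and in 7 of 29 LEA promoters (24.1%). ACGTG also stood in 9 of 22 promoters of photosystem genes (40.9%), a list that fell, and in 4 of 14 of the chaperone list (28.6%), which holds 8 risers. Over all called genes, ACGTG stood in 39.9% of promoters of risers and 26.0% of those of fallers, and CATGCA in 15.3% and 8.37%. Matches are letters in a window and were not tested as binding sites.

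Of 11 small heat shock proteins and other chaperones tested, 8 rose and none fell, with a median of 1.05, where 6.16% of all genes rose. HSP17.4, a cytosolic small heat shock protein, measured 31.4, 42.5 and 19.6 TPM in the knockout, 243, 364 and 206 TPM in wild type and 486, 605 and 589.5 TPM with overexpression (log2 fold change 4.18, SE 0.24, adjusted p = 5.4e-08). The groups were separate in that order. HSP17.6A rose by 3.78, HSP17.6C by 2.76 and the mitochondrial HSP23.6 by 2.36. HSFA9, the heat shock factor of seeds that drives small heat shock genes, rose from 0.959, 0.757 and 0.882 TPM in the knockout to 13.7, 16.9 and 19.6 TPM (log2 fold change 3.24, SE 0.21, adjusted p = 1.5e-07), with wild type at 7.37, 11.9 and 6.14 TPM. Of 9 genes for desiccation sugars, seed aquaporins and antioxidants, 6 rose and none fell. The tonoplast aquaporins TIP3;1 and TIP3;2 rose by 1.25 and 0.97, the stress-induced membrane protein TSPO by 2.51, and the peroxiredoxin PER1, a marker of dormant embryos, from 387, 423 and 445 to 710.1, 820.2 and 804 TPM (log2 fold change 0.89, SE 0.12, adjusted p = 4.0e-05).

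**Figure D2:**
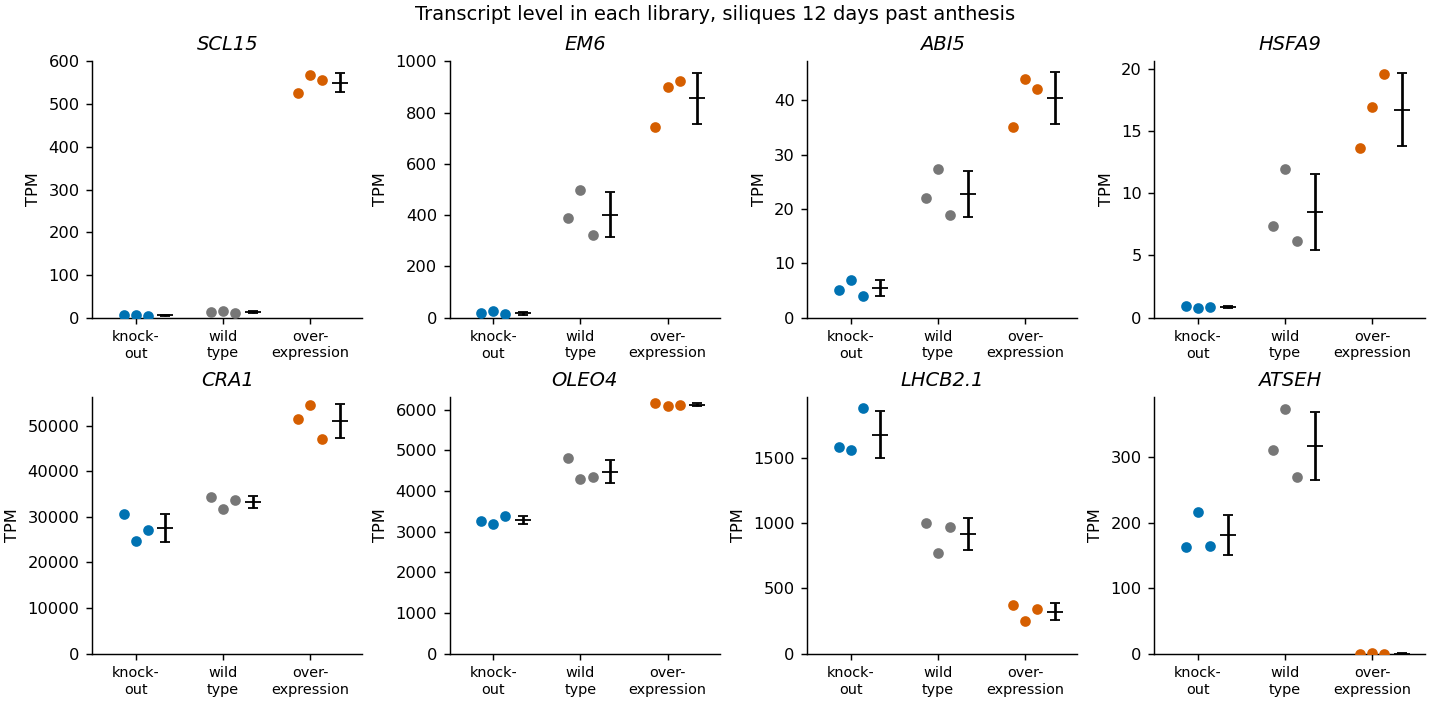
TPM of 8 genes in each library of the knockout, wild type and overexpression groups (points), with mean and SD (bars, n = 3) on axes that start at 0. EM6, ABI5, HSFA9 and OLEO4 step upward from knockout to wild type to overexpression without overlap, LHCB2.1 steps downward, and ATSEH stands at 0, 0.409 and 0.232 TPM in the overexpression libraries and above 160 TPM in the other 6.

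Among 17 seed maturation transcription factors, 3 rose, 2 fell and 12 did not pass, and the list's median was -0.22. The share of fallers was near the 14.5% of all genes. As deposited alone 7 fell, where 43% of all genes did. With a filter at a mean of 5 TPM 1 fell, but LEC1, below that mean, was then not tested. ABI5, the bZIP factor of abscisic acid responses, went from 5.17, 6.96 and 4.02 to 35, 44 and 42.2 TPM (log2 fold change 2.72, SE 0.18, adjusted p = 1.6e-07) and wild type, at 22, 27.3 and 18.9 TPM, lay between. ABI3 rose from 39.9, 32 and 33.2 to 45.6, 60.4 and 49.3 TPM (log2 fold change 0.55, SE 0.13, adjusted p = 0.004), with wild type at 32.6, 32 and 33.8 TPM, level with the knockout. HSFA9 was the other. The embryo factors LEC1 and L1L, subunits of NF-Y complexes of early embryogenesis, fell. LEC1 measured 6.1, 5.55 and 7.33 TPM in the knockout and 0.614, 0.512 and 1.52 TPM with overexpression (log2 fold change -1.99, SE 0.24, adjusted p = 1.0e-04). L1L measured 66, 41.9 and 75.3 TPM in the knockout against 16.7, 14 and 18.3 TPM (log2 fold change -1.81, SE 0.23, adjusted p = 4.7e-04). No overexpression library reached the knockout range for either. FUS3 did not pass, at 27, 15.5 and 28.6 TPM in the knockout against 13.9, 14.6 and 16.1 TPM (adjusted p = 0.59). ABI3 and FUS3 were named after their values were seen.

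Of 32 genes of dormancy and abscisic acid, 6 rose, 6 fell and 20 did not pass, with a median of -0.35, near that of all genes. Of all genes tested 6.16% rose and 14.5% fell, and the share of fallers in the list was near the latter. The number of risers was 13 after median-ratio scaling alone, where 13.3% of all genes rose. As deposited alone 14 members fell, where 43% of all genes did. DOG1, the main quantitative dormancy factor, rose from 33.4, 25.8 and 25.6 to 55, 66.9 and 80.5 TPM (log2 fold change 1.22, SE 0.16, adjusted p = 3.3e-05). AHG1, a seed protein phosphatase 2C that DOG1 binds, rose from 6.46, 8.13 and 5.32 to 46.7, 51.1 and 36.6 TPM (log2 fold change 2.59, SE 0.18, adjusted p = 2.3e-07). Wild type lay between the lines for both genes. NCED2, an enzyme of abscisic acid synthesis, was at 1.08, 0.833 and 0.141 TPM in the knockout and 16, 19.97 and 14.4 TPM with overexpression (log2 fold change 3.44, SE 0.23, adjusted p = 1.6e-07), and wild type, at 16.5, 19.3 and 12.4 TPM, overlapped overexpression. HAI3, another phosphatase 2C, rose by 1.61. The 6 fallers, named after their values were seen, were 4 abscisic acid receptor genes (PYL4, PYL6, PYL7 and PYL8), ABA1 and HAI1, with fold changes from -1.11 for PYL7 to -0.93 for PYL4.

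Of 14 gibberellin genes tested 1 rose and 2 fell, near the shares of all genes (6.16% higher, 14.5% lower). As deposited alone 5 fell, where 43% of all genes did. After median-ratio scaling alone 4 rose, where 13.3% of all genes did. The receptor gene GID1B rose (log2 fold change 0.99, SE 0.19, adjusted p = 7.8e-04) and the DELLA genes RGA (log2 fold change -0.98, SE 0.12, adjusted p = 0.0028) and RGL2 (log2 fold change -0.86, SE 0.16, adjusted p = 0.035) fell. GID1B measured 2.71, 3.36 and 3.83 TPM in the knockout and 8.04, 8.09 and 6.43 TPM with overexpression. Its groups were separate. RGL2 lost its call without knockout replicate 1, 2 or 3 and without overexpression replicate 2 or 3, which leaves 1 lower member, and 2 members were higher without knockout replicate 2. None of 7 tested relatives and chromatin partners of SCL15 passed on both scales. As deposited alone, 3 were lower, HDA19 (fold change -0.40, adjusted p = 0.013), HDA6 (-0.40, adjusted p = 0.019) and HAM3 (-0.40, adjusted p = 0.03), close to the all-gene median. After median-ratio scaling HDA19 was at 0.03 and HDA6 at 0.01.

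All 23 tested genes of RUBISCO and light harvesting and all 22 nuclear photosystem genes were lower, with medians of -1.80 and -1.38. LHCB2.1, a light harvesting protein of photosystem II, measured 1581, 1561 and 1881 TPM in the knockout and 375, 253 and 341 TPM with overexpression (log2 fold change -2.38, SE 0.16, adjusted p = 1.4e-06), with wild type between at 999.8, 773 and 967 TPM. RBCS1A, the main RUBISCO small subunit gene, had the largest loss in TPM among called genes other than ribosomal RNA, from 7104, 7368 and 9752 to 2855, 2394 and 3189.7 TPM (log2 fold change -1.52, SE 0.18, adjusted p = 1.0e-03). LHCB1.1 fell from 1115 to 157 TPM (means, n = 3), LHCB1.3 from 5468 to 1593 TPM and LHCB1.5 from 3526 to 1273 TPM. LHCB1, LHCB2 and RBCS genes have near-identical copies and may share reads. In the photosystems, PSAN of photosystem I fell by 1.99 on the log2 scale, PSBQ1 and PSBW of photosystem II by 1.76 and 1.63, and PSAH2 by 1.61. In these libraries of whole siliques, fewer green cells and less RNA per cell cannot be told apart. Of the plastid genome's own genes, 29 of 71 tested were lower and none higher, where 14.5% of all genes were lower. Their share of TPM without ribosomal RNA overlapped between the lines, at 0.220% to 0.343% in the knockout and 0.112% to 0.221% with overexpression.

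Among 24 genes of fatty acid and oil synthesis 3 rose and 5 fell, with a median of -0.73, where 6.16% of all genes rose and 14.5% fell. As deposited alone 17 fell, where 43% of all genes did. With a replicate block 10 fell, where 2908 of 16553 genes did. SUS3, a sucrose synthase of late seed development, rose from 14, 15.3 and 8.86 to 48.1, 53.3 and 49.2 TPM (log2 fold change 1.93, SE 0.18, adjusted p = 2.3e-06). BCCP1, a subunit of the plastid acetyl-CoA carboxylase that starts fatty acid synthesis, fell from 69.5, 56.9 and 84.2 to 29, 28.6 and 25.8 TPM (log2 fold change -1.29, SE 0.17, adjusted p = 0.0028). BCCP2 fell by 1.19 and ROD1, which channels diacylglycerol into membrane lipid desaturation, by 1.11. The number of fallers rested on single libraries: it was 2 without knockout replicate 1, knockout replicate 3 or overexpression replicate 2, 3 without overexpression replicate 3, and 10 without knockout replicate 2. BCCP2 lost its call without knockout replicate 1 or 3 and without overexpression replicate 2 or 3.

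**Figure D3:**
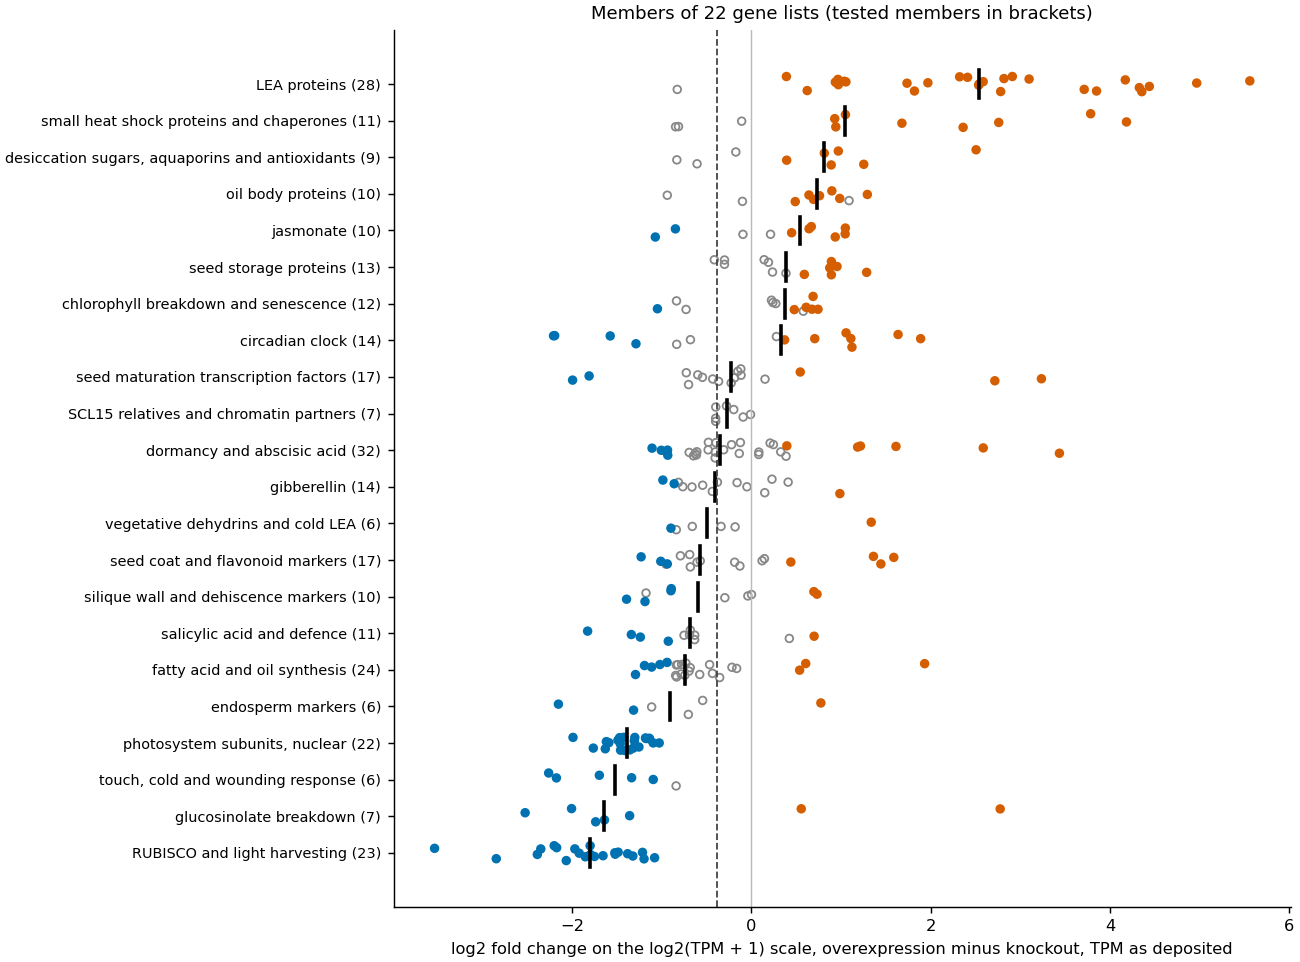
Each point is the log2 fold change (overexpression minus knockout, TPM as deposited) of a tested member of 1 of 22 gene lists, filled orange if called higher, filled blue if called lower and open if not called. Black bars are list medians, the dashed line is the median of all genes (-0.38), and LEA proteins (median 2.54) and RUBISCO with light harvesting (median -1.80) are the outermost lists.

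Of 14 clock genes tested, 7 rose and 4 fell, where 6.16% and 14.5% of all genes did. The morning factors CCA1 and LHY fell: CCA1 from 18.23, 17.1 and 14.3 to 3.08, 1.48 and 4.4 TPM (log2 fold change -2.20, SE 0.24, adjusted p = 4.8e-05) and LHY by 2.19. The evening gene ELF4 rose from 6.56, 6.68 and 1.74 to 19.5, 18.3 and 19.5 TPM (log2 fold change 1.89, SE 0.30, adjusted p = 2.1e-04) and GRP7, a clock-controlled RNA-binding protein, from 245, 320.2 and 211 to 828, 704 and 860.01 TPM (log2 fold change 1.64, SE 0.15, adjusted p = 2.4e-06). These 4 were the called members of largest change, and their lines did not overlap. Of all genes tested, 7.36% had every overexpression library above the knockout and 49.3% below it. Harvest times per line are not given in the labels used here, and their part in these values was not tested.

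Of 6 tested touch, cold and wounding genes 5 fell and none rose, with a median of -1.51, where 14.5% of all genes fell. ZAT12, a zinc finger protein of abiotic stress, fell from 50.01, 58.8 and 50.05 to 9.75, 8.14 and 13.5 TPM (log2 fold change -2.26, SE 0.18, adjusted p = 3.0e-06), and TCH4, a cell wall enzyme, from 89.6, 85.1 and 79.1 to 16.9, 16.5 and 20.8 TPM (log2 fold change -2.17, SE 0.12, adjusted p = 1.4e-07). The calmodulin-like genes TCH2 and TCH3 fell by 1.69 and 1.33. Of 11 salicylic acid and defence genes 4 fell and 1 rose, where 14.5% and 6.16% of all genes did. As deposited alone 9 fell, where 43% of all genes did. With a filter at a mean of 5 TPM 2 fell, but PAD4 and EDS1, under 5 TPM in every library, were then not tested. WRKY53 fell from 21.3, 17.7 and 20.6 to 6.34, 6.92 and 2.51 TPM (log2 fold change -1.82, SE 0.25, adjusted p = 0.001), WRKY70 by 1.34 and the lipase-like regulators PAD4 and EDS1 by 1.24 and 0.92. For PAD4, wild type (0.721, 1.12 and 0.904 TPM) was level with overexpression (0.977, 0.992 and 1.16 TPM) and the knockout stood apart at 3.4, 4.1 and 3.94 TPM. EDS1 lost its call without knockout replicate 1 or 2 and without overexpression replicate 1. With wild type replicate 2 left out, 2 members of the list were higher.

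Of 10 jasmonate genes tested 6 rose and 2 fell, where 6.16% and 14.5% of all genes did. The share of fallers was near that of all genes. VSP1, a vegetative storage protein, measured 112, 137 and 122 TPM in the knockout and 246, 261 and 262 TPM with overexpression (log2 fold change 1.05, SE 0.14, adjusted p = 6.2e-05), but wild type stood above both lines at 778, 868 and 578 TPM. CORI3, a cystine lyase induced by coronatine, had the same order, with 12.4, 13.8 and 13.8 TPM in the knockout, 30.5, 33.3 and 23 TPM with overexpression and 234, 228 and 145 TPM in wild type. The repressor gene JAZ10 rose by 0.94. Both fallers depended on single libraries. JMT, which methylates jasmonic acid (log2 fold change -1.07, SE 0.29, adjusted p = 0.03), and MYC2, named after its values were seen, gave 0 fallers without knockout replicate 1 or overexpression replicate 1 or 2, and 1 without knockout replicate 2 or 3.

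Of 7 glucosinolate breakdown genes 2 rose and 5 fell, where 6.16% and 14.5% of all genes did. ESM1, a modifier of hydrolysis, fell from 11.1, 9.97 and 13 to 1.55, 0.928 and 1.01 TPM (log2 fold change -2.52, SE 0.17, adjusted p = 6.5e-07) with wild type above both lines at 39.5, 32.2 and 29.4 TPM. The specifier protein gene ESP fell by 2.00 on the log2 scale and the myrosinase gene TGG1 by 1.73, while the seed nitrile specifier gene NSP2 rose from 47.7, 78.1 and 28.4 to 322, 378 and 296 TPM (log2 fold change 2.78, SE 0.27, adjusted p = 3.2e-06). The count of risers was 1 without knockout replicate 1 or 3 or overexpression replicate 1 or 2. Chlorophyll breakdown and senescence had 5 of 12 higher and 1 lower (6.16% and 14.5% of all genes). After median-ratio scaling alone 9 were higher, where 13.3% of all genes were. NYC1, a chlorophyll b reductase, rose from 89.8, 83.2 and 64 to 134, 133 and 128 TPM (log2 fold change 0.74, SE 0.13, adjusted p = 5.2e-04). SGR2 and SAG21 rose by 0.69 and 0.68, and wild type was at or above overexpression for part of its libraries in all 3 genes. SAG13 fell (log2 fold change -1.05, SE 0.18, adjusted p = 0.026) and lost its call without knockout replicate 2 or overexpression replicate 1 or 2, which leaves 0 fallers, while without overexpression replicate 3 there were 2.

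After SCL15, the largest rise among genes whose higher group averaged at least 5 TPM was in AT3G01345, annotated only as an expressed protein. It measured 0.54, 0.328 and 0.433 TPM in the knockout, 6.92, 7.73 and 10.8 TPM in wild type and 92.7, 82.9 and 82 TPM with overexpression (log2 fold change 5.92, SE 0.16, adjusted p = 2.7e-11). All 3 groups were separate. Of the 12 largest rises 6 were LEA genes (EM6, AT4G36600, AT3G22490, M10, AT3G53040 and ECP31), and 2 were chaperone genes, HSP17.4 and HSP70-5. AT3G53040 rose by 4.33, ECP31 by 4.17 and HSP70-5 by 3.91. AT1G24575, of unknown function, went from 1.96, 2.14 and 2.45 to 47.3, 49.8 and 86.4 TPM. The dioxygenase-family gene AT1G17010 went from 0.428, 0.455 and 0 to 19.7, 26.3 and 22.1 TPM, and AT5G55135 from 0, 0.233 and 0 to 16.3, 18.6 and 20.5 TPM. Among called genes other than ribosomal RNA, the 5 largest gains of TPM were those of CRC, CRA1, OLEO1, CRB and AT2G05580. AT2G05580, a glycine-rich protein, rose from 2343, 2437 and 1726 to 7754, 10905 and 8992 TPM (log2 fold change 2.09, SE 0.18, adjusted p = 1.5e-06).

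The largest fall was in ATSEH, a soluble epoxide hydrolase. It measured 163, 217 and 164 TPM in the knockout and 309.8, 372 and 269 TPM in wild type, and 0, 0.409 and 0.232 TPM with overexpression (log2 fold change -7.23, SE 0.16, adjusted p = 1.7e-11). The overexpression libraries were thus far below both other groups, and the knockout below wild type. AT5G51105 stood at 39.2, 39.7 and 76.9 TPM in the knockout, 1.6, 0.7 and 0.641 TPM in wild type and 0.903, 0 and 0 TPM with overexpression (log2 fold change -5.34, SE 0.30, adjusted p = 1.3e-07). AT1G21395 (fold change -4.64), AT2G19802 (-4.32), the thaumatin-family gene AT1G19320 (-3.60) and DIR12, a dirigent protein (-4.23), had wild type libraries of at most 3.22 TPM and knockout libraries of at least 13.4 TPM. AT1G78520, with a carbohydrate-binding X8 domain (-4.52), the expansin EXPA10 (-3.60), AT1G65490 (-3.56), AT4G00872 (-3.56), LHCB2.3 (-3.53) and GILT (-3.41) make up the 12. EXPA10 measured 85.3, 60.8 and 85.8 TPM in the knockout, 24, 20.5 and 25.3 TPM in wild type and 7.15, 4.24 and 5.14 TPM with overexpression, all 3 groups separate. Among called genes other than ribosomal RNA, AT1G62225 had 1 of the 5 largest losses of TPM, from 1856, 1823 and 2076 to 628, 554 and 748 TPM.

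**Figure D4:**
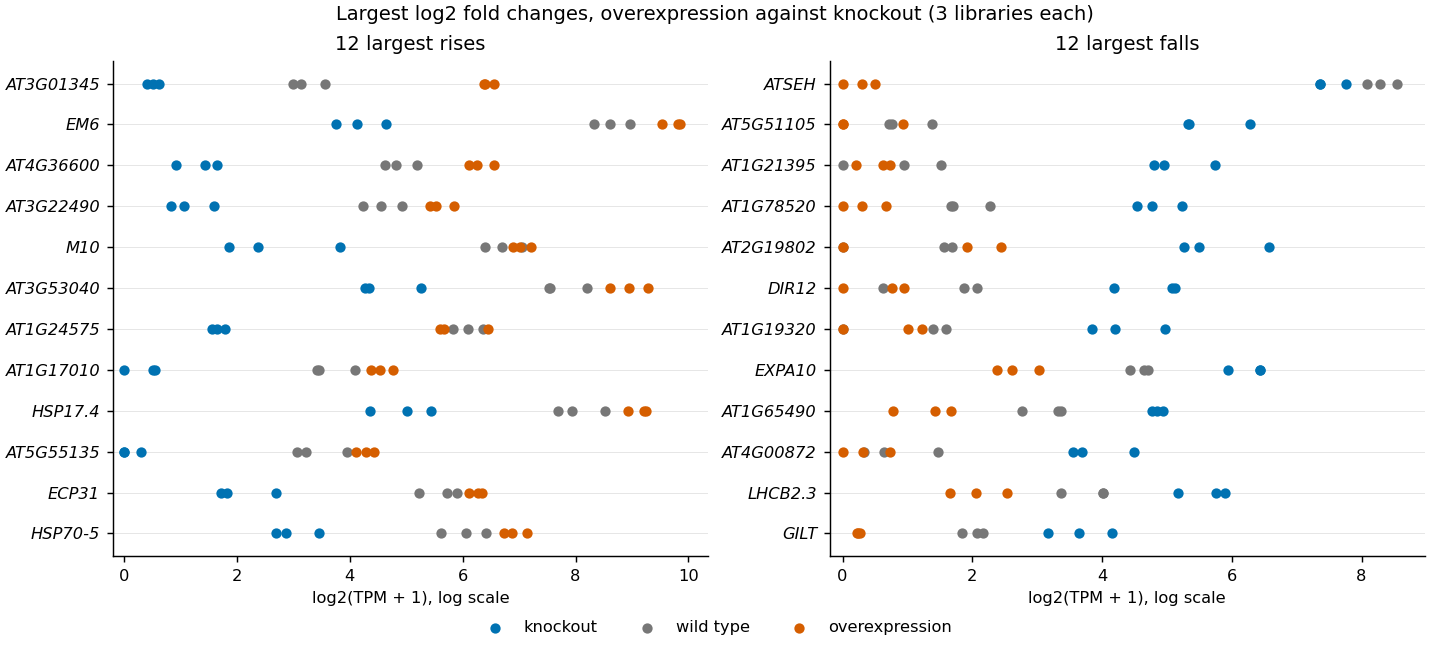
log2(TPM + 1) of the 12 genes with the largest rises (left) and the 12 with the largest falls (right), 1 point per library for knockout (blue), wild type (grey) and overexpression (orange). The genes were picked so that knockout and overexpression do not overlap. Wild type lies close to overexpression for several falls, and for ATSEH it lies beyond the knockout.

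Some genes were near 0 in all libraries of 1 line (0.5 TPM or less) and at 5 TPM or more in all of the other. In the knockout these were 6: AT1G17010, AT5G55135, PER59, CYP71B14, AT5G66430 and AT2G43880. AT2G43880, a pectin lyase-like protein, was listed at 0 in all 3 knockout libraries and at 9.42, 6.92 and 7.21 TPM with overexpression. The peroxidase gene PER59 was at 0.075, 0.273 and 0 TPM in the knockout and 10.6, 13.3 and 9.88 TPM with overexpression. The cytochrome P450 gene CYP71B14 was at 0.247, 0.225 and 0 TPM against 7.76, 11.7 and 12.4 TPM. In wild type all 6 were above 0 in every library, with AT2G43880 at 8.75, 7.62 and 10.8 TPM. With overexpression these were also 6: ATSEH, GILT, XTH6, AT1G13607, AT2G44250 and AT5G61412. XTH6, a cell wall xyloglucan enzyme, was at 12.1, 8.76 and 14.8 TPM in the knockout and 0.441, 0.322 and 0.243 TPM with overexpression, with wild type between at 3.91, 2.74 and 3.69 TPM.

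Markers of the other tissues in a silique were counted beside these changes, and their part in the changes was not tested. For the endosperm 1 of 6 tested markers rose and 2 fell, where 6.16% and 14.5% of all genes did. The sucrose carrier gene SUC5 fell from 10.4, 9.46 and 13.1 to 1.77, 1.86 and 1.43 TPM (log2 fold change -2.15, SE 0.20, adjusted p = 1.6e-05) and ALE1 by 1.31, while the extensin-like gene EPR1 rose from 3076, 3012 and 3028 to 4705, 8013 and 3742 TPM (log2 fold change 0.78, SE 0.25, adjusted p = 0.021). EPR1 made up most of the list's summed level, which ran from 3034 to 3099 TPM in the knockout and from 3750 to 8019 TPM with overexpression. Its call was lost without knockout replicate 1 or overexpression replicate 2, which leaves 0 risers. For the seed coat and flavonoids 4 of 17 rose and 3 fell, the latter near the 14.5% of all genes. As deposited alone 9 fell, where 43% of all genes did. With a filter at a mean of 5 TPM 1 rose, but LDOX, TT1 and DFR, below that mean, were then not tested. In the knockout and with overexpression, the summed level was 779 to 809 TPM and 596 to 645 TPM, respectively. The flavonoid genes LDOX, TT1 and DFR rose from under 2 TPM by 1.59, 1.45 and 1.36, and MYB5 fell by 1.23. Without overexpression replicate 3 only 1 seed coat gene fell. For the silique wall 2 of 10 rose and 4 fell, where 6.16% and 14.5% of all genes did. Its sums of 534 to 788 TPM in the knockout and 539 to 636 TPM with overexpression overlapped. The dehiscence regulator IND fell from 19.4, 26.1 and 23.1 to 8.13, 8.36 and 7.65 TPM (log2 fold change -1.39, SE 0.14, adjusted p = 2.6e-04), FUL by 1.18, and ALC and NST1 by 0.89 each. NST1 (adjusted p = 0.046) lost its call without any 1 of 7 libraries (knockout replicate 1 or 3, overexpression replicate 2 or 3, or any wild type library). The wall list had 1 riser without knockout replicate 1 or 3 or overexpression replicate 2. Of all the markers listed, 1 endosperm marker was at 0 in every knockout library, and 2 endosperm and 2 seed coat markers were at 0 in every overexpression library.

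Of the 10 genes nearest to SCL15, 5 on each side and all tested, 4 were called, 1 on the left and 3 on the right, where 20.7% of all genes were called. HVA22K, whose annotated start lies 60 bases beyond the end of SCL15, measured 0.362, 0.988 and 0.158 TPM in the knockout and 7.57, 6.05 and 6.85 TPM with overexpression (log2 fold change 2.41, SE 0.21, adjusted p = 1.5e-06). Wild type, at 9.77, 10.47 and 7.49 TPM, was as high as overexpression or higher, so the knockout stood apart. GBF1, a G-box binding factor whose locus overlaps that of HVA22K, fell from 19.3, 16.8 and 21 to 8.17, 7.04 and 9.5 TPM (log2 fold change -1.12, SE 0.15, adjusted p = 0.0012). The polyol transporter gene PLT6 and the homeobox gene ATHB-40 fell by 1.11 and 1.23. ATHB-40 lost its call without knockout replicate 1 or 3 or overexpression replicate 3. Reads of overlapping loci may be shared, since the sources used here do not say whether counting used strand.

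Wild type was set between the lines without a test. After median-ratio scaling its mean lay between both lines for 895 of 1019 genes called higher (87.8%) and for 2101 of 2407 called lower (87.3%). Among genes not called the shares were 46.5% and 40.7%. Called genes were selected for a clear gap between the lines, which leaves more room for wild type between them. The higher share among calls thus follows in part from the rule and is no test of an intermediate wild type. Counting the knockout mean as 0% and the overexpression mean as 100%, the median position was 63.2% for genes called higher and 54.5% for genes called lower. As deposited, the shares with the wild type mean between were 65.9% and 95.6%, and the mean lay beyond overexpression for 339 of the genes called higher. All 3 wild type libraries lay between the lines for 509 higher (49.95%) and 607 lower genes (25.2%) after scaling, and for 293 (28.8%) and 1218 (50.6%) as deposited. Which set was more often intermediate thus turned over with the scale. LEA genes had a median position of 68.1% as deposited, with 26 of 27 means between. RUBISCO and light harvesting genes had 48.6%, with 23 of 23. Jasmonate genes had 2 of 8 called members between.

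**Figure D5:**
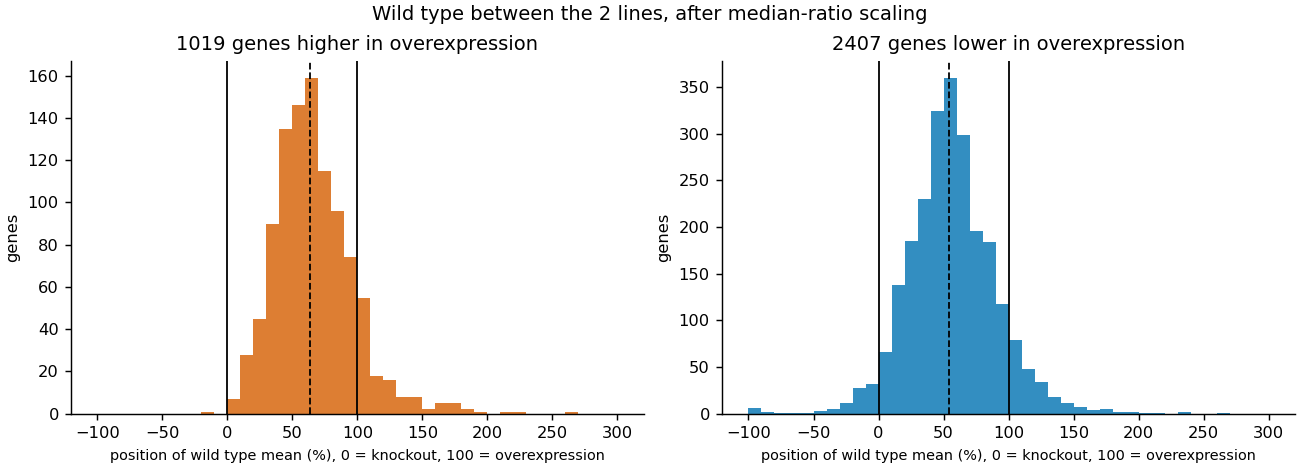
Number of called genes by the position of the wild type mean between the knockout mean (0%) and the overexpression mean (100%) after median-ratio scaling, for 1019 higher and 2407 lower genes, with values beyond the axis drawn at its ends. Solid lines mark both lines of plants and dashed lines the medians, 63.2% and 54.5%, and most genes of both sets lie between the solid lines.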

How the data were processed

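The members and the 22 gene lists (347 memberships, 38 below the level filter) were chosen with earlier results of these data known. Silique RNA came from a column-based kit and went into strand-specific mRNA libraries, per the labels' protocols. The authors deposited TPM for each gene in each library, per the file headers. The submitters' processing notes name TAIR 10 as the build. Sources used here do not give the aligner, the counting tool, its use of strand or the annotation. Each library summed to 1000000 TPM over 33602 rows. A total of 2 rows naming a pair of genes was left out. Positions came from TAIR10.1, where 97.7% of genes were found. A gene was tested if it averaged 1 TPM or more over 9 libraries, as log2(TPM + 1) with limma 3.58.1 (trend) in R 4.3.3, all 9 libraries in 1 fit (6 residual degrees of freedom), with Benjamini-Hochberg adjustment. Calls had to hold on TPM as deposited and after median-ratio scaling, so rises had in practice to clear the deposited scale and falls the scaled one. The fit was tested on simulated data. SCL15 also had an exact permutation test. Lists were described by counts and medians, with no set test.

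Named genes were SCL15 and the 12 largest rises and falls among calls that met 2 limits. These were no overlap between both lines and a mean of 5 TPM or more in the higher line. The 5 largest TPM gains and losses among calls were also named. Each list gave up to 4 called members (2 of highest level where none was called). Genes at 0.5 TPM or less in every library of 1 line and 5 TPM or more in the other were added. So were called genes among the 5 on either side of SCL15. Ribosomal RNA genes were counted but not named. Other named genes are marked as chosen after their values were seen. Alternatives were other scalings, pseudocounts and filters, fewer libraries, no trend and a replicate block. Python 3.11.15, pandas 2.3.3, scipy 1.17.1 and matplotlib 3.10.9 were used.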

Additional observations from a re-analysis of the deposited data

How the results depend on the processing

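Under 20 alternatives the SCL15 change kept its direction and stayed past the threshold in each. The number of genes changed was 3426 as reported and 8145 with TPM as deposited only, of which 7126 were lower. The number higher was 2194 with median-ratio scaling only, 2205 with quantile normalization only and 1822 with TPM rescaled without storage, oil body and LEA genes and ribosomal RNA. Leaving out each library in turn gave 2731 to 3458 changed genes, 864 to 1023 higher and 1867 to 2435 lower. Without knockout replicate 3 and overexpression replicate 3 together, which had the fewest genes above 0 TPM in their groups (20705 and 19677), 2797 genes changed. Of 117 named genes that were called, 104 were called in every alternative, and none reversed. Of the 13 others, CRC, CRA1, OLEO1, CRB, RGL2, BCCP2, SAG13, EPR1, NST1 and ATHB-40 lost their call without a filter on low values. The cause was not tested. Storage protein risers ran from 3 to 8 over all alternatives, LEA risers from 25 to 27, and light harvesting fallers stayed at 23. As deposited alone, 2 chaperone and 2 desiccation genes and 3 vegetative dehydrin genes were lower, against 0, 0 and 1 as reported. On that scale 43% of all genes were lower. With a filter at a mean of 5 TPM, 2 clock genes fell (4 as reported), and without a filter 8 touch genes fell (5 as reported). A change of filter also changes which members are tested. LHY lay below the mean of 5 TPM, and 6 of 9 listed touch genes passed the main filter. TPM keep no depth, so the part of read depth in the precision of each value cannot be seen.

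The main fit did not pair libraries by replicate number. Deviations of same-numbered knockout and overexpression libraries from their group means correlated at 0.074, 0.161 and 0.129. Those of differently numbered libraries correlated at -0.129 to -0.02, so each library correlated best with its own number. Deviations within a line add up to 0 for each gene. The negative values are thus tied to the positive ones and add no separate evidence of matched numbers. Whether the numbers mark a shared batch was not tested. With the replicate number as a block, 4026 genes changed (1118 rose, 2908 fell). They included 3420 of the 3426 reported.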

Other observations

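Called genes were spread evenly over the nuclear genome, from 20.2% of genes tested on chromosomes 3 and 5 to 21.2% on chromosome 4. Of 33 mitochondrial genes tested 1 was called. Families were grouped by identical deposited descriptions with at least 10 tested members and picked after their values were seen. Of 26 SAUR-like auxin-responsive genes 11 were lower (42.3%) and 1 higher. Of 12 genes with a carbohydrate-binding X8 domain 6 were lower, as were 6 of 12 genes described as phototropic-responsive NPH3 family. These shares stand beside 14.5% lower over all genes tested.

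On chromosome 1, 31 neighbouring loci from AT1G62000 to AT1G62230 hold 15 tested genes. Of these, 5 were lower (AT1G62060, AT1G62070, AT1G62210, AT1G62220 and AT1G62225) and none higher, where 14.5% of all genes were lower. As deposited, the 15 tested genes together made up 1.59% to 2.19% of all TPM in the knockout and 1.04% to 1.26% with overexpression, with no overlap of libraries. Of all genes tested, 49.3% had every overexpression library below the knockout. The most abundant of the stretch, AT1G62000 and AT1G62080 (means of 8492 and 5505 TPM in the knockout), were not called. After median-ratio scaling their fold changes were 0.05 and -0.16. This stretch was picked after its values were seen.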
